A study of Caenorhabditis elegans with 22 samples.

Results

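The genes described here encode the lipases of Caenorhabditis elegans and the proteins that build, coat and break down its stores of triglyceride. They were chosen by symbol: every lipl and lips gene with a number, plus atgl-1, hosl-1, lid-1, lpin-1, dgat-2, mboa-2, acl-4, acl-6 and dhs-3. This gave 31 of the 19598 genes counted, of which 22 were lipl or lips genes, and the rule itself uses no measured value. A further pair sought by symbol, plin-1 and seip-1, stood in the table under the names mdt-28 and R01B10.6 and was found by gene identifier (2 genes, described apart and not counted among the 31). After the filter on low counts 29 of the 31 were tested. The lipase-related genes lips-2 (0 to 5 counts per library) and lips-8 (0 to 9 counts per library) were not.

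In the worm, fat is held as triglyceride in lipid droplets, mostly in the intestine and hypodermis. Triglyceride is made from glycerol 3-phosphate by stepwise addition of fatty acids, with a phosphate removed before the last one. It is released by lipases at the droplet surface or, after delivery to lysosomes, by acid lipases of the lipl family. Serotonin is known in C. elegans to promote fat loss, and intestinal atgl-1 is among the genes that act in it.

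RNA was sequenced from whole adults in 22 libraries of 7 groups. Worms were grown in liquid with dead OP50 as food, and FUDR at 0.12 mM, added at the L4 stage, kept them from producing offspring. Compounds were added on day 1 of adulthood and RNA was taken 72 h later. Mutants with the allele ser-7(vq2) were given 5 mM serotonin (n = 3) or DMSO (n = 3), and mutants with ser-5(vq1) were given 50 µM loxapine (n = 2) or DMSO (n = 3). Wild-type N2 animals were given 5 mM serotonin (n = 3), 50 µM loxapine (n = 3) or DMSO (n = 5). Both mutated genes encode serotonin receptors, and loxapine is a tricyclic antipsychotic drug. Serotonin was dissolved in water and loxapine in DMSO, so an effect of the vehicle cannot be told apart from that of serotonin. Each strain is a single allele, and whether replicates came from independent cultures is not in the labels. The p-values therefore speak only of variation among these samples, which may be technical.

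Total counts per library lay between 25652111 and 39765014, and the 31 genes took 0.09 to 0.166% of them. The receptor genes matched the strain labels: ser-7 differed by -6.82 ± 0.47 on the log2 scale (SE, adjusted p = 1.89e-07) in ser-7 mutants against N2, both with DMSO, and ser-5 by -2.58 ± 0.35 (SE, adjusted p = 0.00451) in ser-5 mutants against N2. The N2 DMSO libraries of replicates 2 and 5, and of 3 and 6, differed less than other replicates did (chi-square per degree of freedom 4.94 and 3.86, against 11.9 to 140 for other pairs within a group). They were kept apart, and calls that end with them summed are given beside the gene. All 16 tested intestinal markers, such as elt-2 and ges-1, were detected in every group. With serotonin in N2, 3 of them were higher and 4 lower, where 20.4% of all genes were higher and 16.8% lower. Their summed level was 3121 to 7168 CPM (counts scaled to library size by TMM) with serotonin, 3103 to 4399 CPM with loxapine and 3578 to 4506 CPM with DMSO in N2.

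Per kilobase of exon, the level in N2 with DMSO spanned a wide range. The highest mean was that of lipl-5, for a lysosomal lipase, at 198 CPM per kb. Its 5 libraries ran from 49.55 to 412 CPM per kb. Among the lipases lipl-7 followed, at 61.3 CPM per kb (58.6 to 63.5 CPM per kb). The genes of triglyceride synthesis and of lipolysis at the droplet had means below both: lid-1 at 52.5, acl-4 at 50.4, lpin-1 at 42.5, mboa-2 at 40.2, atgl-1 at 39.2, dgat-2 at 37.3, acl-6 at 29.5 and hosl-1 at 18.8 CPM per kb. The perilipin gene plin-1 stood at 154 CPM per kb (149 to 161 CPM per kb). Most lips genes were far lower, such as lips-12 at 0.328 and lips-6 at 0.281 CPM per kb. Means of neighbouring genes in the middle of this order were not separated by their ranges, and neither was lipl-5 from plin-1 or lipl-7.

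**Figure D1:**
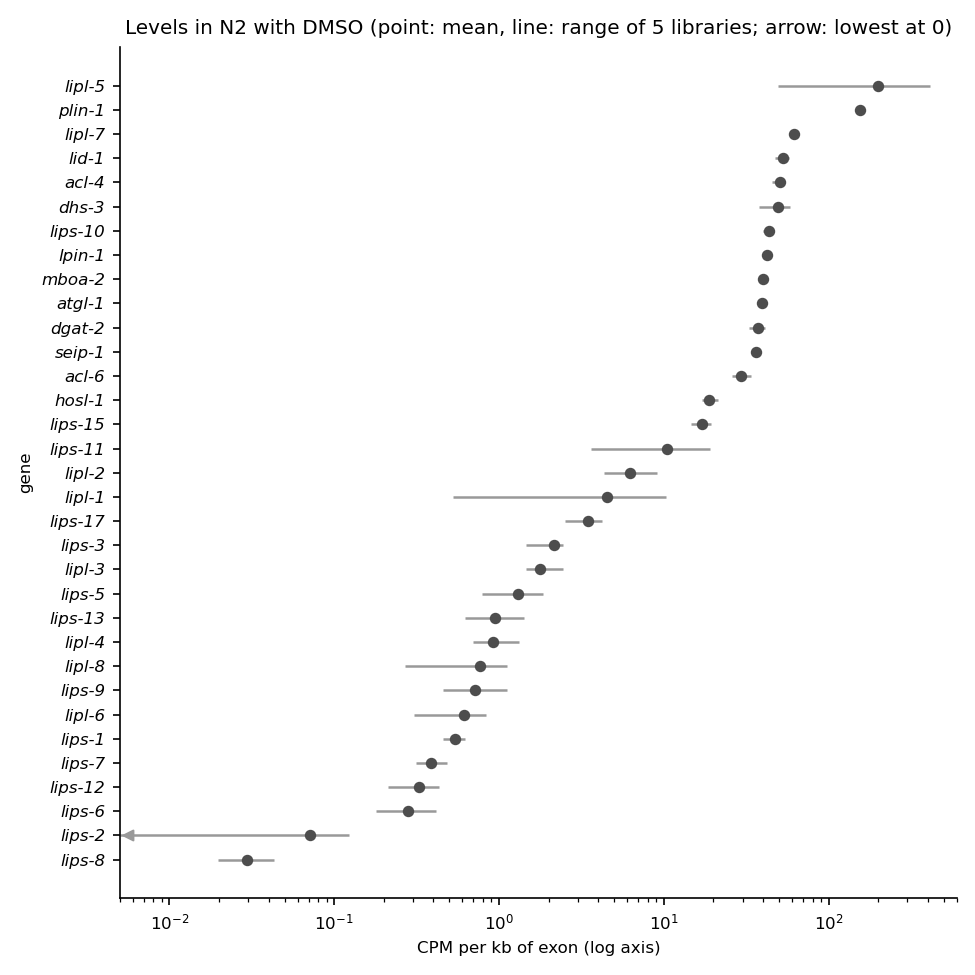
Level of each gene in N2 with DMSO in CPM per kb of exon on a log axis, where points are means and lines the range of 5 libraries. The storage and droplet genes lie mostly between 18.8 and 154 CPM per kb, and the lips genes spread from 0.0294 CPM per kb (lips-8) to 43.4 CPM per kb (lips-10).

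With serotonin in N2, every lipase gene of the lipl and lips families that passed was lower, and most of the changed genes of triglyceride synthesis and droplet lipolysis were higher. Of the 29 genes, 16 passed the threshold (edgeR quasi-likelihood test, adjusted p under 0.05 over 16431 genes), 5 of them higher and 11 lower, where 37.1% of all genes passed (20.4% higher and 16.8% lower). Among 20 lipl and lips genes tested, 10 were lower and none was higher. Among the other 9 genes, 5 were higher and 1 was lower. The median log2 fold change was -0.61 over the lipl and lips genes and 0.30 over the others, beside -0.12 over all genes.

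The lips genes, which encode lipase-related proteins, held 7 of the 10 lower lipase genes. The gene lips-11 (chromosome II, 1108841 to 1111001, minus strand, WBcel235 in Ensembl's annotation) had 0.230, 0.350 and 1.51 CPM with serotonin, against 6.37, 14.4, 3.15, 5.10 and 16.7 CPM with DMSO. Every serotonin library thus lay below every DMSO library. The change was -3.77 ± 0.97 on the log2 scale (SE, edgeR, adjusted p = 0.00619), and it was -4.98 without serotonin replicate 3. Levels of lips-11 differed between 3 series of consecutive library numbers, and serotonin replicate 3 is in the third. Within series 1, 2 and 3 the log2 differences were -3.30, -3.69 and -3.28. Next to it on the same strand lie lips-12 (1112184 to 1114233) and lips-13 (1115606 to 1118042), with gaps of 1183 and 1373 bp. How reads shared by such neighbouring family members were counted is not given in the sources used here, so the split between them is uncertain.

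The gene lips-13 had 0.154, 0.254 and 0.612 CPM with serotonin, against 0.813, 0.559, 0.661, 1.26 and 0.903 CPM with DMSO. Only serotonin replicate 3 reached into the DMSO range. It fell by 1.35 ± 0.38 on the log2 scale (SE, edgeR, adjusted p = 0.00772). With a replicate block its adjusted p was 0.0818 (0.00156 to 0.0818 over the alternatives), and without serotonin replicate 3 the change was -2.05. The gene lips-12 had 3, 6 and 4 counts with serotonin, against 14, 13, 9, 7 and 8 counts with DMSO, and gave -1.10 ± 0.44 (SE, edgeR, adjusted p = 0.0563).

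The gene lips-15 (chromosome II, 12604386 to 12607027) had 11.5, 16.7 and 19.0 CPM with serotonin, against 47.8, 36.5, 47.1, 43.5 and 37.3 CPM with DMSO. The groups were well apart, and the fall of 1.44 ± 0.18 (SE, edgeR, adjusted p = 1.52e-05) had the smallest p among the 29 genes. Within each of 3 series of consecutive library numbers it was lower too, by log2 differences of -2.03, -1.45 and -0.95. At far lower levels, lips-9 had 0.282, 0.159 and 0.216 CPM with serotonin, against 0.840, 0.500, 0.476, 1.16 and 0.703 CPM with DMSO. It fell by 1.72 ± 0.40 (SE, edgeR, adjusted p = 0.00217), with no overlap between the groups. The gene lips-7 had 0.307, 0.286 and 0.144 CPM with serotonin and 0.596, 0.706, 0.634, 0.913 and 0.803 CPM with DMSO, likewise without overlap. Its change was -1.53 ± 0.40 (SE, edgeR, adjusted p = 0.00546), and 109 bp of its exons overlap the gene mlt-10 on the same strand.

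Calls at 2 more lips genes were less stable. The gene lips-10 had 29.5, 42.1 and 23.3 CPM with serotonin and 43.2, 45.3, 41.0, 45.3 and 47.8 CPM with DMSO, so serotonin replicate 2 lay inside the DMSO range. It fell by 0.49 ± 0.15 (SE, edgeR, adjusted p = 0.0133), a call lost with a replicate block (adjusted p = 0.0622) and without serotonin replicate 3 (adjusted p = 0.136, in a range of 9.74e-04 to 0.136 over the alternatives). The gene lips-6 had 6, 8 and 1 counts with serotonin and 8 to 16 counts with DMSO. Its fall of 1.15 ± 0.45 (SE, edgeR) had an adjusted p of 0.04997. That call ended in 17 of 22 fits that left out 1 library, with the highest adjusted p without serotonin replicate 3 (0.239), and with a replicate block (0.326, in a range of 0.0201 to 0.326). It also ended with every other change of setting but the library series block. Of the lips genes not past the threshold, lips-1, lips-3, lips-5 and lips-17 had log2 fold changes of 0.04, -0.35, 0.34 and -0.60.

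Among the 8 lipl genes, for lysosomal acid lipases, 3 were called lower. Within the 3 library series, lipl-3, lipl-4, lipl-7 and lipl-8 were below DMSO in all 3, and lipl-1, lipl-2, lipl-5 and lipl-6 were not. The gene lipl-7 (chromosome IV, 10239278 to 10241823) had 49.4, 58.9 and 46.2 CPM with serotonin, against 82.3, 79.0, 78.8, 75.9 and 80.7 CPM with DMSO. The DMSO libraries lay within a narrow band, and all 3 serotonin libraries were below it. It fell by 0.62 ± 0.10 (SE, edgeR, adjusted p = 1.62e-04). The gene lipl-4, for the lysosomal lipase whose products are carried to the nucleus by LBP-8, had 0.922, 0.794 and 0.900 CPM with serotonin, against 1.36, 1.15, 2.19, 1.56 and 1.37 CPM with DMSO. Its fall of 0.81 ± 0.28 (SE, edgeR, adjusted p = 0.0293) was not called with a replicate block (adjusted p = 0.239), or without serotonin replicate 2 (0.0943), serotonin replicate 3 (0.0759) or DMSO replicate 4 (0.0821), in a range of 0.0167 to 0.239.

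The gene lipl-8 had 12, 4 and 0 counts with serotonin, against 50, 11, 35, 50 and 20 counts with DMSO. Its fitted change of -2.54 ± 0.80 (SE, edgeR, adjusted p = 0.0173) was not called without serotonin replicate 2 (0.0617) or replicate 3 (0.0799), in a range of 0.00103 to 0.0799, and was -3.72 without serotonin replicate 1. The fasting-responsive lipase gene lipl-3 lay below the DMSO libraries in all 3 serotonin libraries, at 1.77, 1.78 and 1.51 CPM against 2.10 to 3.49 CPM, with -0.59 ± 0.31 (SE, edgeR, adjusted p = 0.135). The genes lipl-1, lipl-2, lipl-5 and lipl-6 gave log2 fold changes between -0.18 and -0.07. Within library series 1, 2 and 3 lipl-1 gave log2 differences of -1.215, -0.316 and 2.258, which do not share a direction.

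At the lipid droplet, atgl-1, for the adipose triglyceride lipase homologue (chromosome III, 6415772 to 6419459), had 123, 124 and 145 CPM with serotonin, against 109, 97.6, 99.0, 109 and 103 CPM with DMSO. All serotonin libraries lay above all DMSO libraries, by a log2 fold change of 0.34 ± 0.10 (SE, edgeR, adjusted p = 0.00873). Without serotonin replicate 3 it was 0.25 with an adjusted p of 0.0828, in a range of 0.00114 to 0.0828. The gene lid-1, for the co-activator of ATGL-1, had 76.9, 104 and 117 CPM with serotonin, against 62.6, 76.1, 72.3, 62.8 and 73.7 CPM with DMSO. It rose by 0.52 ± 0.10 (SE, edgeR, adjusted p = 5.01e-04), and serotonin replicate 1 lay just above the highest DMSO library. The hormone-sensitive lipase gene hosl-1 had 69.4, 55.8 and 42.6 CPM with serotonin, a wide spread around the 58.6 to 73.7 CPM with DMSO, and gave -0.21 ± 0.12 (SE, edgeR, adjusted p = 0.165).

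Of the 5 genes of triglyceride synthesis, 3 were higher and 1 was lower. The gene dgat-2, for the acyltransferase of the last step (chromosome V, 17660303 to 17661810), had 16.6, 25.8 and 26.8 CPM with serotonin, against 42.0, 48.0, 38.4, 45.1 and 45.1 CPM with DMSO. It fell by 0.92 ± 0.15 (SE, edgeR, adjusted p = 1.46e-04), with serotonin replicate 1 the lowest of all 22 libraries. The gene mboa-2, for the other kind of acyltransferase of that step, moved the other way, at 76, 95.7 and 102 CPM with serotonin and 68.9, 75.6, 78.8, 70.7 and 74.0 CPM with DMSO. Its rise of 0.31 ± 0.10 (SE, edgeR, adjusted p = 0.0148) ended without serotonin replicate 2 (0.0654) or 3 (0.135), with no filter on low counts (0.0520), with the near-duplicate controls summed (0.0578) and in a fit of the compared groups only (0.0900), in a range of 8.38e-04 to 0.135.

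Of the counted genes for earlier steps, acl-6 and lpin-1 passed and were higher, and acl-4 did not pass. The gene acl-6, for a glycerol 3-phosphate acyltransferase (chromosome V, 5433386 to 5437095), had 75.2, 113 and 138 CPM with serotonin, against 60.1, 78.0, 66.9, 60.8 and 78.8 CPM with DMSO. Serotonin replicates 2 and 3 lay above the DMSO range and replicate 1 inside it, for a rise of 0.66 ± 0.14 (SE, edgeR, adjusted p = 0.00123). The gene lpin-1, for the phosphatidate phosphatase, had 159, 162 and 160 CPM with serotonin and 120 to 135 CPM with DMSO. Its rise of 0.30 ± 0.12 (SE, edgeR, adjusted p = 0.0454) ended in 14 of 22 fits that left out 1 library, up to an adjusted p of 0.118 without serotonin replicate 3, and also with no filter (0.124) and with the near-duplicate controls summed (0.100), in a range of 0.00984 to 0.124. The gene acl-4, for a further glycerol 3-phosphate acyltransferase, gave 0.20 ± 0.11 (SE, edgeR, adjusted p = 0.155).

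**Figure D2:**
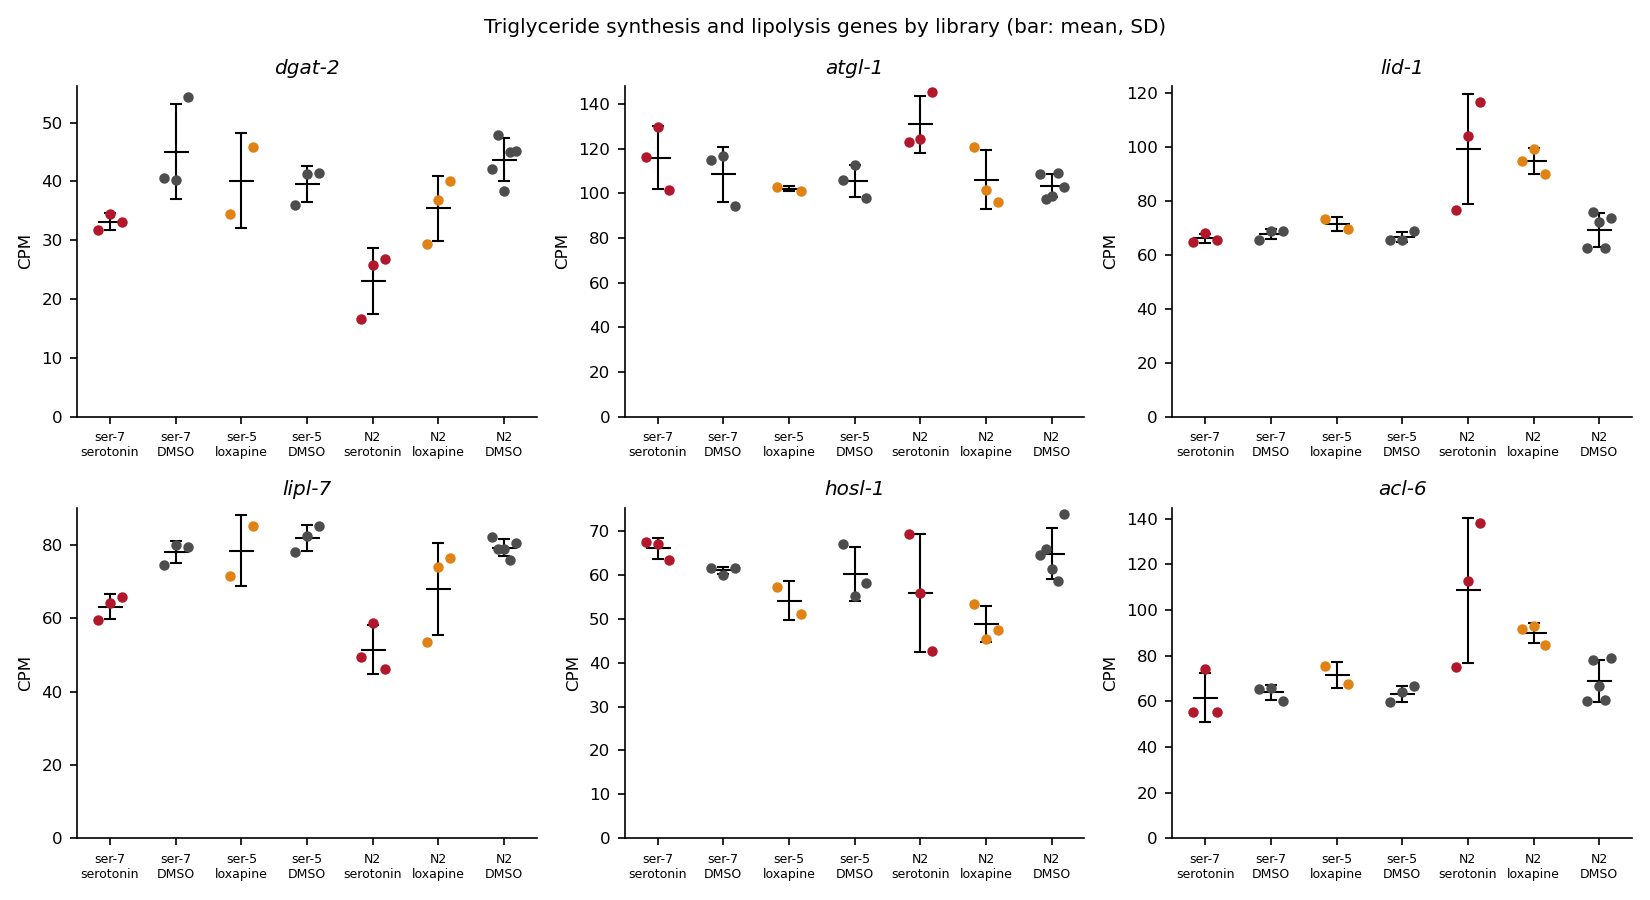
Level in CPM of 6 genes in each library by strain and treatment, where points are libraries, the horizontal bar is the group mean and the error bar the SD. With serotonin in N2, dgat-2 lies at 16.6 to 26.8 CPM, below all other libraries, while lid-1 lies at 76.9 to 117 CPM.

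Of the genes for droplet coat proteins, plin-1, for the worm perilipin, had 319, 389 and 393 CPM with serotonin, against 292, 305, 288, 283 and 293 CPM with DMSO. It rose by 0.33 ± 0.08 (SE, edgeR, adjusted p = 0.00329). The seipin gene seip-1, for a protein of droplet formation, had 47.3, 51.6 and 62.1 CPM with serotonin and 33.6 to 37.8 CPM with DMSO, and rose by 0.57 ± 0.09 (SE, edgeR, adjusted p = 8.75e-05). Neither gene overlapped between the groups. The gene dhs-3, for a short-chain dehydrogenase on intestinal droplets, had 29.7, 55.7 and 61.7 CPM with serotonin and 38.7 to 60.1 CPM with DMSO, with no difference past the threshold (-0.05 ± 0.23, SE, edgeR, adjusted p = 0.881).

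Markers of some other tissues moved in the same libraries. With serotonin in N2, 17 of 18 oocyte and germline markers were higher and 1 lower, 13 of 14 body wall muscle markers were lower, and 13 of 17 neuron markers were lower. Of 11 hypodermis markers 1 was higher and 1 lower, and of 10 tested sperm markers 0 passed. Over all genes 20.4% were higher and 16.8% lower. The summed oocyte markers were at 10200 to 16550 CPM with serotonin, against 8418 to 9303 CPM with DMSO, and the summed muscle markers at 2267 to 2783 CPM, against 4318 to 5187 CPM. No muscle marker was at 0 in any group. Their part in the changes of the lipase and storage genes was not tested. In whole animals, fewer cells of a type and less RNA per cell cannot be told apart.

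Loxapine in N2 gave fewer calls. Of the 29 genes 8 passed, 3 higher and 5 lower, where 18.9% of all genes passed (10.5% higher and 8.38% lower), and the median log2 fold change was -0.09 beside -0.07 over all genes. Both comparisons in N2 use the same 5 DMSO libraries, so their values are given side by side and no overlap is drawn from them. Of the lipl genes, 0 of 8 passed by edgeR and 1, lipl-7 (-0.22 ± 0.10, SE, adjusted p = 0.132), had an unadjusted p under 0.05.

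The lips cluster on chromosome II was low with loxapine. The gene lips-11 had 0.445, 0.351 and 2.17 CPM with loxapine, against 3.15 to 16.7 CPM with DMSO, a change of -3.21 ± 0.92 (SE, edgeR, adjusted p = 0.0250). It was -4.50 without loxapine replicate 3. The call ended without loxapine replicate 1 (0.0706) or 2 (0.133), or with the near-duplicate controls summed (0.0667), in a range of 6.73e-06 to 0.133. Within library series 1, 2 and 3 lips-11 gave log2 differences of -2.57, -3.69 and -2.78. The gene lips-13 had 0.183, 0.128 and 0.275 CPM with loxapine, below every DMSO library, and fell by 2.08 ± 0.40 (SE, edgeR, adjusted p = 0.00325). The gene lips-12 had 2, 3 and 2 counts with loxapine, against 7 to 14 counts with DMSO, and fell by 2.02 ± 0.49 (SE, edgeR, adjusted p = 0.00961). Outside the cluster, lips-15 had 19.1, 29.1 and 19.4 CPM with loxapine, below the 36.5 to 47.8 CPM with DMSO, and fell by 0.92 ± 0.17 (SE, edgeR, adjusted p = 0.00273).

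The gene lips-5 went the other way, at 2.10, 3.83 and 5.13 CPM with loxapine and 1.17, 2.56, 2.56, 1.10 and 1.64 CPM with DMSO. Loxapine replicates 2 and 3 lay above the DMSO range and replicate 1 within it. The rise of 1.03 ± 0.33 (SE, edgeR, adjusted p = 0.0357) was lost with a replicate block (0.111), with the near-duplicate controls summed (0.111), in a fit of the compared groups only (0.0635), without loxapine replicate 2 (0.123) or 3 (0.214), and without DMSO replicate 2 (0.0897), 5 (0.0890) or 6 (0.0589), in a range of 0.0120 to 0.214.

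At the droplet, hosl-1 had 53.4, 45.5 and 47.4 CPM with loxapine, against 64.6, 65.9, 61.3, 58.6 and 73.7 CPM with DMSO. All loxapine libraries lay below all DMSO libraries, by -0.41 ± 0.12 (SE, edgeR, adjusted p = 0.0215). That call ended without loxapine replicate 2 (0.114) or 3 (0.0765) and with the near-duplicate controls summed (0.0716), in a range of 0.00398 to 0.114. The co-activator gene lid-1 had 95, 99.5 and 90.0 CPM with loxapine, above every DMSO library, and rose by 0.45 ± 0.10 (SE, edgeR, adjusted p = 0.00653), with an adjusted p of 0.0577 without loxapine replicate 2 as the highest over the alternatives (lowest 3.44e-04). The lipase gene atgl-1 had 121, 101 and 96.1 CPM with loxapine, around the 97.6 to 109 CPM with DMSO, and gave 0.04 ± 0.10 (SE, edgeR, adjusted p = 0.817).

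Of the genes of triglyceride synthesis, acl-4 passed, at 145, 142 and 166 CPM with loxapine against 105, 124, 126, 107 and 124 CPM with DMSO. Its rise of 0.36 ± 0.11 (SE, edgeR, adjusted p = 0.0272) was lost with a replicate block (0.0682), with the near-duplicate controls summed (0.0948), and without loxapine replicate 2 (0.0742) or 3 (0.136) or DMSO replicate 2 (0.0706) or 5 (0.0699), in a range of 0.0110 to 0.136. The gene dgat-2 had 29.4, 36.8 and 40.1 CPM with loxapine, overlapping the 38.4 to 48.0 CPM with DMSO, and gave -0.30 ± 0.15 (SE, edgeR, adjusted p = 0.155). The gene acl-6 lay above all DMSO libraries at 91.7, 93.1 and 84.8 CPM but did not pass (0.38 ± 0.14, SE, edgeR, adjusted p = 0.0657).

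The droplet genes plin-1 and seip-1 were higher, by 0.28 ± 0.08 (SE, edgeR, adjusted p = 0.0209) and 0.31 ± 0.09 (SE, edgeR, adjusted p = 0.0201). Neither was called with a replicate block (adjusted p = 0.114 for plin-1 and 0.0600 for seip-1, in ranges of 0.00615 to 0.116 and 0.00463 to 0.0881). Both calls ended with the near-duplicate controls summed (0.0710 for plin-1 and 0.0756 for seip-1). The call of plin-1 also ended without loxapine replicate 2 (0.116) or 3 (0.0659) or DMSO replicate 5 (0.0509), and that of seip-1 without loxapine replicate 1 (0.0592) or 2 (0.0881). The gene dhs-3 had 50.2, 81.7 and 92.2 CPM with loxapine and 38.7 to 60.1 CPM with DMSO, at 0.56 ± 0.23 (SE, edgeR, adjusted p = 0.0908). With a replicate block it passed (adjusted p = 0.0268, in a range of 0.0177 to 0.348). In these loxapine libraries 13 of 18 oocyte markers were higher and 1 lower, where 10.5% of all genes were higher and 8.38% lower. Of muscle markers 13 of 14 were lower, with a sum of 2378 to 3213 CPM, and 7 of 17 neuron markers were lower. Of hypodermis markers 1 of 11 was lower, and of 10 tested sperm markers 0 passed. The part of these markers was not tested.

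**Figure D3:**
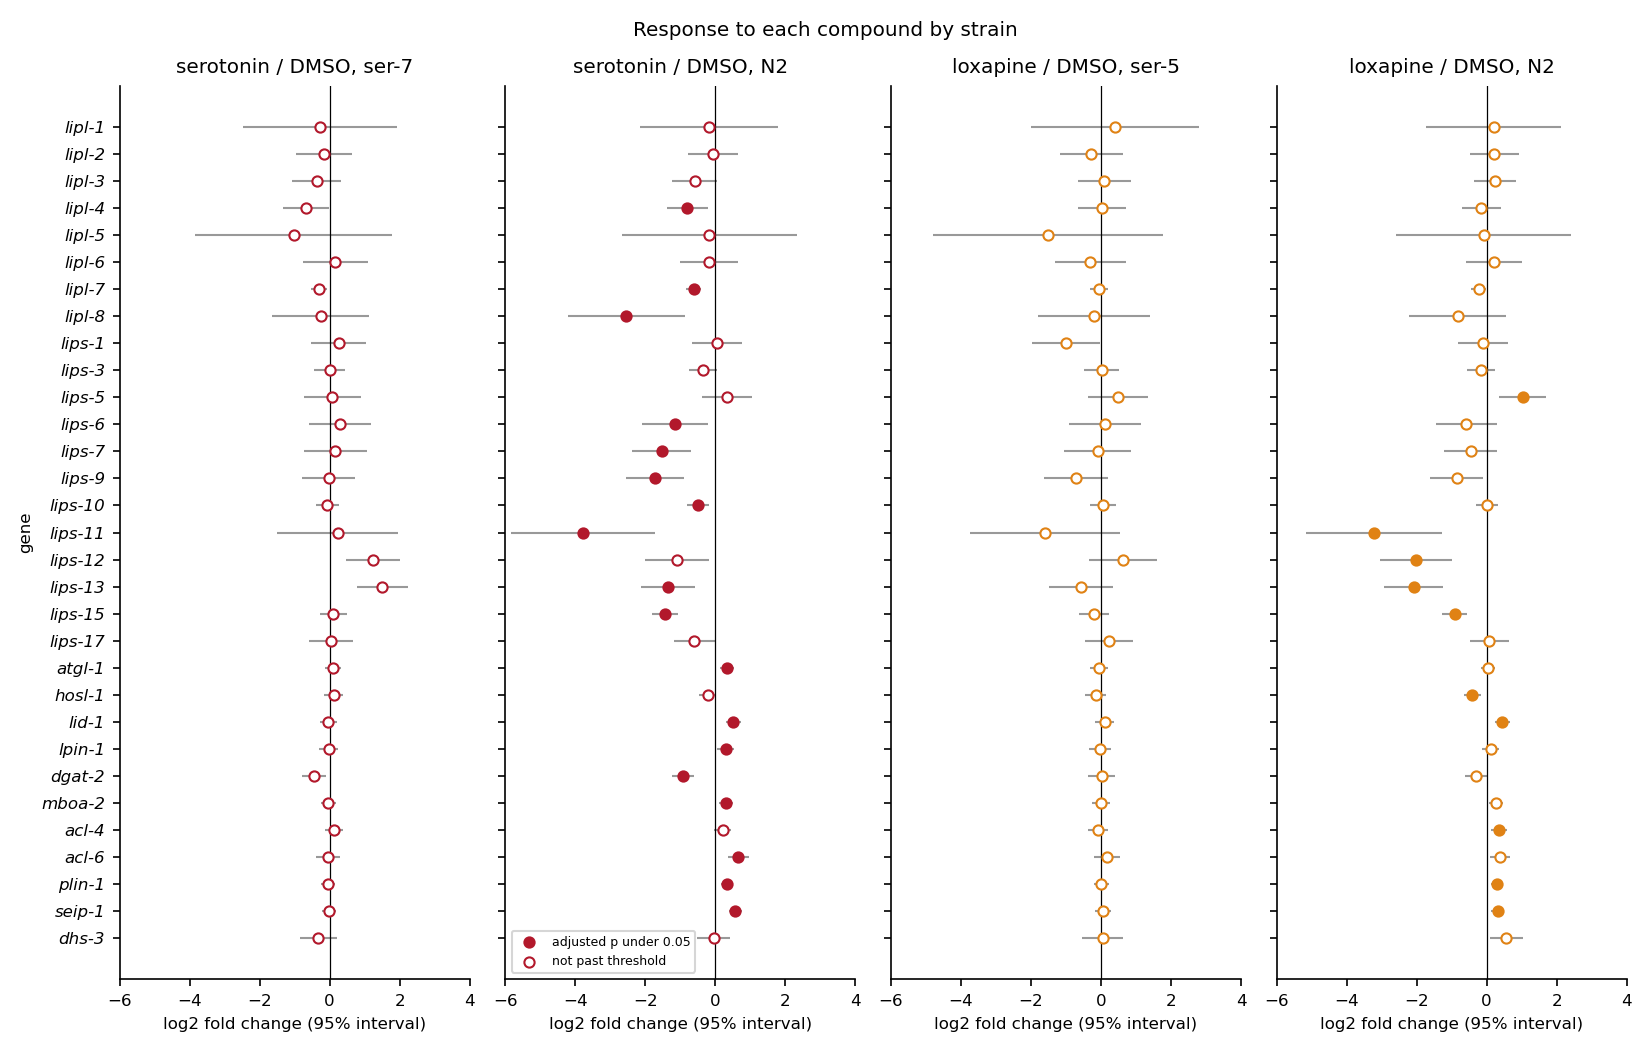
Log2 fold change of each gene with its 95% interval for each compound against DMSO in the mutant strain and in N2, where filled points have an adjusted p under 0.05. In N2, 16 of 29 genes passed with serotonin and 8 of 29 with loxapine, besides plin-1 and seip-1, and 0 passed in each mutant.

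Serotonin against loxapine in N2 compared the compounds directly, at 5 mM and 50 µM, without the DMSO libraries. At 10 of the 29 genes the unadjusted p was under 0.05, and the share of all genes at that cut is not given here. Past the adjusted threshold were 1.5% of all genes (0.548% higher and 0.949% lower, which is 90 and 156 genes). With RLE size factors these were 84 and 81 genes. Of the 29 genes 0 passed by edgeR, and none passed by DESeq2. The closest was dgat-2, with 16.6, 25.8 and 26.8 CPM with serotonin and 29.4, 36.8 and 40.1 CPM with loxapine, by -0.62 ± 0.17 (SE, 95% interval -0.96 to -0.28, edgeR, adjusted p = 0.0587). With a replicate block its adjusted p was 0.00562, in a range of 0.00203 to 0.552. The gene lipl-7 gave -0.40 ± 0.11 (SE, edgeR, adjusted p = 0.0746) and passed with that block (0.0322, in a range of 0.00587 to 0.569). For lid-1 the difference was 0.07 with an interval of -0.17 to 0.30, and for lips-11 it was -0.56 with an interval of -2.86 to 1.74.

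In ser-7 mutants, serotonin gave no call. By edgeR 0 of 29 genes passed, where 0.0% of all genes passed, and none of the 29 passed by DESeq2. An unadjusted p under 0.05 was found at 5 of the 29, and the share of all genes at that cut is not given here. The lowest unadjusted p-values were at lips-13 and lips-12 of the chromosome II cluster. The gene lips-13 had 2.63, 2.69 and 3.15 CPM with serotonin, against 0.918, 1.23 and 0.815 CPM with DMSO (1.5 ± 0.35, SE, edgeR, adjusted p = 0.904, unadjusted p = 3.34e-04). The gene lips-12 had 51, 26 and 43 counts with serotonin, against 13, 19 and 23 counts with DMSO (1.23 ± 0.37, SE, edgeR, adjusted p = 0.970). Neither overlapped between the groups, and in each of the 3 library series both were higher with serotonin.

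The other 3 genes with an unadjusted p under 0.05 in ser-7 mutants had log2 fold changes below 0. The gene dgat-2 had 31.7, 34.5 and 33.2 CPM with serotonin, below the 40.6, 40.2 and 54.3 CPM with DMSO (-0.44 ± 0.16, SE, 95% interval -0.78 to -0.10, edgeR, adjusted p = 1.00). The gene lipl-7 had 59.5, 64.2 and 66 CPM with serotonin, below the 74.5, 79.9 and 79.5 CPM with DMSO (-0.30 ± 0.11, SE, edgeR, adjusted p = 1.00). For lipl-4 the difference was -0.68 ± 0.31 (SE, edgeR, adjusted p = 1.00). The genes atgl-1 and lid-1 gave 0.09 and -0.03, with 95% intervals of -0.13 to 0.32 and -0.27 to 0.20.

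The serotonin responses of ser-7 mutants and N2 were then compared as an interaction. Of the 29 genes 7 differed, where 15.6% of all genes did (5.65% higher and 9.96% lower in ser-7 mutants). All 5 with a positive difference were lips genes, and the 2 with a negative one were lid-1 and acl-6. The difference for lips-11 was 4.00 ± 1.26 (SE, edgeR, adjusted p = 0.0410), between responses of 0.22 in ser-7 mutants and -3.77 in N2. In ser-7 mutants lips-11 had 17.8, 20.3 and 35.4 CPM with serotonin, against 8.80, 7.28 and 46.9 CPM with DMSO. DMSO replicate 3, the highest of the 6 libraries, and serotonin replicate 3 belong to library series 3. The difference for lips-13 was 2.85 ± 0.51 (SE, edgeR, adjusted p = 0.00441), between 1.5 in ser-7 mutants and -1.35 in N2. That for lips-12 was 2.32 ± 0.58 (SE, edgeR, adjusted p = 0.0124), between 1.23 in ser-7 mutants and -1.10 in N2.

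For lips-15 the responses were 0.11 in ser-7 mutants and -1.44 in N2, a difference of 1.55 ± 0.25 (SE, edgeR, adjusted p = 0.00284). For lips-9 they were -0.03 in ser-7 mutants and -1.72 in N2, a difference of 1.68 ± 0.54 (SE, edgeR, adjusted p = 0.0383). The last was lost with a replicate block (0.0688, in a range of 0.0217 to 0.0962). In ser-7 mutants lips-9 had 1.12, 1.44 and 0.832 CPM with serotonin, against 0.837, 1.65 and 0.978 CPM with DMSO, and lips-15 had 40.6, 47.7 and 61.8 CPM, against 44.5, 49.3 and 45.3 CPM. Both genes overlapped between the groups in that strain. In contrast, lid-1 had 64.9, 68.1 and 65.7 CPM with serotonin in ser-7 mutants, against 65.7, 68.9 and 68.9 CPM with DMSO in that strain. Its response differed from that in N2 by -0.55 ± 0.15 (SE, edgeR, adjusted p = 0.0193). That of acl-6 differed by -0.71 ± 0.22 (SE, edgeR, adjusted p = 0.0307), between -0.06 in ser-7 mutants and 0.66 in N2. In ser-7 mutants acl-6 had 55.5, 74 and 55.1 CPM with serotonin, against 65.6, 66 and 60.2 CPM with DMSO.

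Outside the counted genes, seip-1 differed by -0.59 ± 0.13 (SE, edgeR, adjusted p = 0.00824) and plin-1 by -0.38 ± 0.12 (SE, edgeR, adjusted p = 0.0395). The call at plin-1 ended with a replicate block (0.112, in a range of 0.00387 to 0.127), with no filter (0.0830), with the near-duplicate controls summed (0.0789), in a fit of the compared groups only (0.0769) and in 12 of 22 fits that left out 1 library. For dgat-2 the difference of 0.48 ± 0.22 (SE, 95% interval 0.02 to 0.94, edgeR, adjusted p = 0.145) did not pass, nor did that of lipl-7 (0.32 ± 0.15, SE, adjusted p = 0.163), atgl-1 (-0.25 ± 0.15, SE, adjusted p = 0.266) or lipl-4 (0.12 ± 0.42, SE, adjusted p = 0.879). Of 7 calls, lips-12, lips-13 and lips-15 held in all alternatives that gave a p, 3 in all. In a fit of the compared groups only, the calls at lid-1 (0.0568), lips-9 (0.0596), lips-11 (0.0655) and acl-6 (0.0738) ended. With the near-duplicate controls summed, those at lips-9 (0.0687), lips-11 (0.0766) and acl-6 (0.0558) ended, and with no filter that at lips-11 (0.0531). The call at lid-1 ended in 1 of 22 fits that left out a library, that without N2 serotonin replicate 3 (0.0773, in a range of 2.15e-04 to 0.0773). The calls at lips-9, lips-11 and acl-6 ended in 8, 12 and 8 of those fits. For lips-9 the highest adjusted p was 0.0962, without N2 serotonin replicate 2, and the call also ended without N2 serotonin replicate 3, N2 DMSO replicates 2 and 5, ser-7 serotonin replicates 1 and 2, and ser-7 DMSO replicates 1 and 3. For lips-11 it was 0.0966, without N2 serotonin replicate 2, and the call was kept only in fits without N2 serotonin replicate 3, ser-7 DMSO replicate 3, N2 DMSO replicate 4 or 5, or a library of N2 with loxapine or of ser-5 mutants with DMSO. For acl-6 it was 0.137, without N2 serotonin replicate 3, and the call also ended without N2 serotonin replicate 2, N2 DMSO replicates 2 and 5, ser-7 serotonin replicates 1 and 3, and ser-7 DMSO replicates 1 and 2. Without N2 serotonin replicate 3 lips-11 differed by 5.22 and lips-13 by 3.56, and without ser-7 DMSO replicate 3 lips-11 differed by 5.38. In the same contrast 13 of 18 oocyte markers were lower, and 9 of 14 muscle and 4 of 17 neuron markers were higher. Over all genes 5.65% were higher and 9.96% lower. Of 11 hypodermis and 10 tested sperm markers 0 passed. The part of these markers was not tested.

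**Figure D4:**
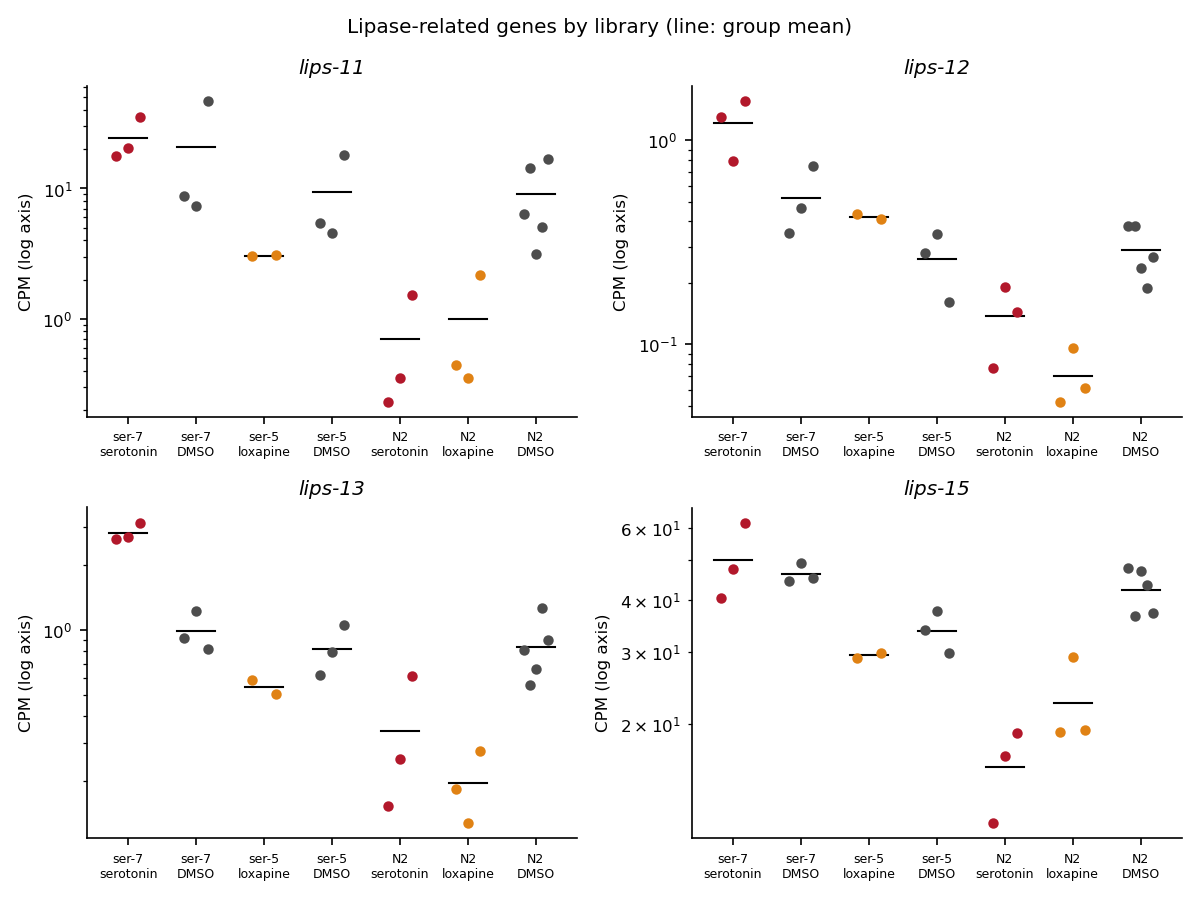
Level in CPM of 4 lips genes in each library by strain and treatment on a log axis, where points are libraries and lines are group means. For lips-13 the ser-7 serotonin libraries lie at 2.63 to 3.15 CPM, above all other libraries, and the N2 libraries with loxapine lie at 0.128 to 0.275 CPM.

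In ser-5 mutants, loxapine gave no call. By edgeR 0 of 29 genes passed, where 0.0487% of all genes passed, and none of the 29 passed by DESeq2. An unadjusted p under 0.05 was found at 1 of the 29 (lips-1, -1.01 ± 0.47, SE), and the share of all genes at that cut is not given here. The gene lips-11 had 3.03 and 3.06 CPM with loxapine, below the 5.39, 4.52 and 18.1 CPM with DMSO (-1.60 ± 1.01, SE, 95% interval -3.74 to 0.54). The gene lips-12 had 14 and 13 counts with loxapine and 10, 15 and 4 counts with DMSO. For hosl-1 the difference was -0.15, with an interval of -0.46 to 0.15, and for lid-1 it was 0.10, with an interval of -0.16 to 0.37.

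The loxapine responses of ser-5 mutants and N2 did not differ past the threshold at any of the 29 genes (0.0% of all genes did). There was no call by DESeq2. An unadjusted p under 0.05, for which the share of all genes is not given here, was found at 5 of the 29. The widest of these 5 was lips-12, at 2.65 ± 0.68 (SE, unadjusted p = 8.49e-04, adjusted p = 0.399), between responses of 0.63 in ser-5 mutants and -2.02 in N2. With a library series block, lips-11 passed (2.47, adjusted p = 0.0357). The ser-5 mutant group with loxapine held 2 libraries.

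Without compound, none of the 29 genes passed between a mutant and N2. Between ser-7 mutants and N2, both with DMSO, 0 of 29 genes passed by edgeR and by DESeq2. Over all genes 1.2% passed by edgeR (0.755% lower). An unadjusted p under 0.05, for which the share of all genes is not given here, was found at 2 of the 29. These were lips-7, with 10, 14 and 15 counts in ser-7 mutants and 22 to 34 counts in N2 (-1.0 ± 0.38, SE), and lips-12 (0.83 ± 0.36, SE). With a library series block lips-11 passed (1.11, adjusted p = 0.0106). Between ser-5 mutants and N2, 0 of 29 passed by edgeR and by DESeq2, where 0.00609% of all genes passed by edgeR, and 0 had an unadjusted p under 0.05. For atgl-1 the interval ran from -0.13 to 0.27 between ser-7 mutants and N2.

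Some lipl genes stood at different levels in different series of libraries. By their numbers the libraries fall into 3 series of consecutive numbers, each with all or nearly all groups. The gene lipl-5 lay at 41.3 to 144 CPM in the first series (median 112, n = 7), at 37.3 to 63.9 CPM in the second (median 45.9, n = 8) and at 207 to 587 CPM in the third (median 520, n = 7). The gene lipl-1 ran the other way, at 5.86 to 13.7 CPM, 5.31 to 10.9 CPM and 0.703 to 4.21 CPM. The third series did not overlap the other pair at either gene, and it held libraries of both DMSO and compound. Over all groups lips-11 had medians of 3.15, 4.81 and 16.7 CPM in series 1, 2 and 3, with ranges that overlapped. The 95% interval of the log2 fold change of lipl-5 with serotonin in N2 ran from -2.67 to 2.34.

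Within series, lipl-5 with serotonin in N2 gave log2 differences of -1.78, -0.67 and 0.26 in series 1, 2 and 3, which do not share a direction. In ser-7 mutants they were -1.23, -0.31 and -1.07, below 0 in all 3. The highest and lowest group means differed by 35.1 times for lips-11, 17.5 times for lips-12 and 14.4 times for lips-13. By the same measure they differed by 1.28 times for atgl-1 and 1.23 times for lpin-1.

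**Figure D5:**
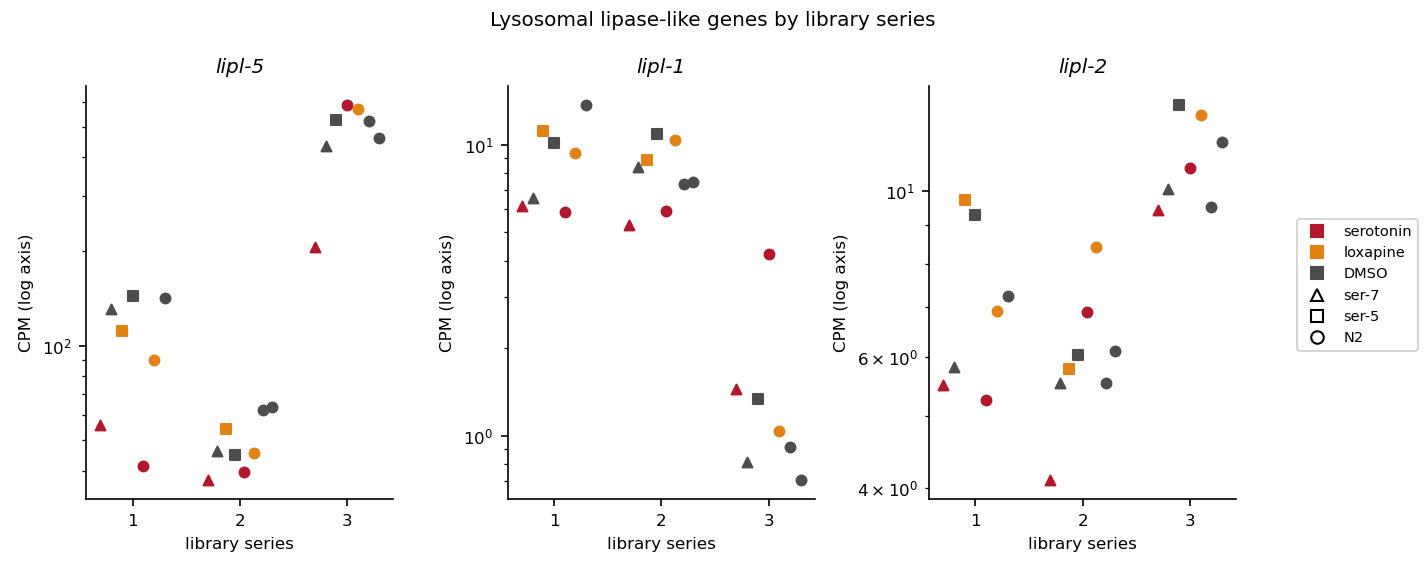
Level in CPM of 3 lipl genes by library series on a log axis, where each point is a library, colour gives the treatment and shape the strain. All third-series libraries of lipl-5 lie at 207 to 587 CPM, above the 37.3 to 144 CPM of the other series, and those of lipl-1 lie at 0.703 to 4.21 CPM, below them.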

How the data were processed

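The authors deposited whole-number read counts per gene for 22 RNA-seq libraries from whole adults, sequenced as 100 nt single reads in lanes of 6, per the labels' protocols. For the aligner, counter, genome build, annotation and strand setting, the entry is: not given in the sources used here. Gene positions came from Ensembl release 115 (WBcel235), joined by gene identifier for all 19598 genes, and 11 symbols turned into dates by a spreadsheet were restored by identifier.

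From the counts as deposited, edgeR 4.0.16 (R 4.3.3) was fitted to all 22 libraries with 1 mean per group, TMM scaling and robust quasi-likelihood tests, after a filter (minimum count 10, minimum total 15) that kept 16431 genes. P-values were adjusted by Benjamini-Hochberg over all of them, with a threshold of 0.05. Counts of unadjusted p-values under 0.05 are given without the share of all genes at that cut. Levels are TMM-scaled CPM, SE is the absolute log2 fold change divided by √F, and intervals are 95%. Within-series differences are log2 of CPM plus 0.1. Total counts were 25652111 to 39765014 per library, and counts near 0 are limited by counting error.

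Alternatives were RLE size factors, DESeq2 1.42.0, no filter, only the groups compared, a replicate block, a library series block, near-duplicate controls summed, and each library left out. The replicate block is the batch tag of the labels. Over 51 pairs of libraries sharing a tag, deviations from the group means correlated at -0.096 to 0.648 (median 0.23), and 38 were over 0.1. A single N2 DMSO library carries each of the tags r4, r5 and r6, and the block gives those 3 no weight. Over 68 pairs sharing a library series the median correlation was 0.247, with 52 over 0.1. Over 137 pairs from different series it was -0.13, with 23 over 0.1. The main fit holds no term for the series.

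All genes matching the symbol rule are accounted for. Those named with full statistics are the largest changes among the called genes of each comparison, up to 8 each way, and atgl-1, hosl-1, lid-1, lipl-4, dgat-2, plin-1 and dhs-3. From the related lists up to 4 called genes per list are named by size, besides set regulators. The symbol rule uses no measured value, but the gene family and the related lists were chosen with earlier results of these data known.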

Additional observations from a re-analysis of the deposited data

Results flagged for a closer look

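Groups of 4 to 10 libraries were checked for a library apart from the rest, and only the N2 DMSO group is of that size. In it, 1 library stood apart at 2 of the 31 genes. For lipl-3, replicate 4 had 3.49 CPM and the others 2.10 to 2.48 CPM. That replicate is the only N2 DMSO library of series 1. Over all groups lipl-3 had medians of 3.25, 1.99 and 2.48 CPM in series 1, 2 and 3. For lips-3, replicate 2 had 1.79 CPM and the others 2.69 to 2.98 CPM. Chance alone marks about 1 in 20 groups in this way, and the group was checked at each of the 31 genes.

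The serotonin response differed between ser-7 mutants and N2, by the interaction test, at 7 genes. The log2 differences were 1.68 for lips-9, 4.00 for lips-11, 2.32 for lips-12, 2.85 for lips-13, 1.55 for lips-15, -0.55 for lid-1 and -0.71 for acl-6. Of these, lips-12, lips-13 and lips-15 were called in every alternative that gave a p.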

How the results depend on the processing

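Each comparison was repeated under 7 other settings and without each of 22 libraries. No gene called in N2 or in the interaction changed direction. Of the 16 genes called for serotonin in N2, 8 (lipl-7, lips-7, lips-9, lips-11, lips-15, lid-1, dgat-2 and acl-6) were called in every fit. For loxapine in N2 and for the interaction these were 3 each (lips-12, lips-13 and lips-15), leaving out fits that gave lips-12 no p.

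With the replicate block the counts were 12 for serotonin in N2, 7 for loxapine in N2, 6 for the interaction and 2 for serotonin against loxapine, and it changed no call of the 29 genes beyond those given above. Over all genes that block called 2848 higher and 2596 lower for serotonin in N2, and 1463 and 1567 for loxapine in N2. It called 1063 and 1579 for the interaction, and 291 and 605 for serotonin against loxapine. Summing the near-duplicate controls gave 13 calls for serotonin in N2, 4 for loxapine in N2 and 4 for the interaction, and fitting only the compared groups gave 3 for the interaction. The library series block gave 16 calls for serotonin in N2, 12 (6 higher) for loxapine in N2, 10 (8 higher) for the interaction, 1 in the loxapine interaction, 1 between ser-7 mutants and N2, and 3 for serotonin against loxapine. Over all genes this block also gave more calls than the main fit. For serotonin in N2 it called 3711 higher and 3948 lower, against 3346 and 2756 in the main fit. Loxapine in N2 had 2522 and 2753, against 1724 and 1377. The interaction had 1833 and 2301, against 928 and 1637. Between ser-7 mutants and N2 there were 370 and 478, against 73 and 124. Serotonin against loxapine had 505 and 788, against 90 and 156. With no filter, serotonin against loxapine gave 1 call. The cause of these shifts was not tested.

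Leaving out 1 library gave 9 to 16 calls for serotonin in N2 (9 without N2 serotonin replicate 3), 3 to 11 for loxapine in N2 (3 without N2 loxapine replicate 2), and 4 to 9 for the interaction (4 without N2 serotonin replicate 3, N2 DMSO replicate 2, ser-7 serotonin replicate 1 or ser-7 DMSO replicate 1). For serotonin against loxapine it gave 0 to 4 (4 without N2 loxapine replicate 1, 3 without N2 serotonin replicate 2, and 1 without N2 serotonin replicate 1 or ser-7 DMSO replicate 3). Genes with under 20 counts in most libraries, such as lips-6 and lips-12, are limited by depth.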

Other observations

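With serotonin in N2, 37.1% of all genes were called (20.4% higher and 16.8% lower), and the counts of the lists here are to be read against that share. Of 23 tested genes in a list of regulators of lipid metabolism, not of breakdown alone, 3 were higher and 7 lower. The largest change was at lbp-8, for the carrier of lipids made by LIPL-4, which rose by 2.80 ± 0.49 on the log2 scale (SE, edgeR, adjusted p = 3.01e-04), and it rose by 2.20 ± 0.50 with loxapine (SE, adjusted p = 0.00773). The loxapine call at lbp-8 ended without loxapine replicate 2 (0.0830). In ser-7 mutants its response to serotonin differed from that in N2 by -3.40 ± 0.83 (SE, edgeR, adjusted p = 0.0126). The transcription factor genes mxl-3 and sbp-1 fell by 0.64 ± 0.13 (SE, edgeR, adjusted p = 6.21e-04) and 0.48 ± 0.10 (SE, edgeR, adjusted p = 9.88e-04) with serotonin. The gene hlh-30, for the TFEB homologue, fell by 0.55 ± 0.20 (SE, edgeR, adjusted p = 0.0371, or 0.0946 with a replicate block, in a range of 0.00184 to 0.217). That call also ended with the near-duplicate controls summed (0.09255) and in a fit of the compared groups only (0.0651). It ended too without serotonin replicate 2 or 3 and without DMSO replicate 2 or 5.

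Of 12 genes of the serotonin and fat axis, 1 was higher and 5 were lower with serotonin in N2, beside 20.4% and 16.8% of all genes. The tyrosine decarboxylase gene tdc-1 rose by 0.76 ± 0.14 (SE, edgeR, adjusted p = 4.26e-04). The neuropeptide gene flp-7 gave -0.63 ± 0.23 (SE, edgeR, adjusted p = 0.0367, or 0.0769 with RLE size factors, in a range of 0.00759 to 0.167). That call also ended with the near-duplicate controls summed (0.101) and by DESeq2 (0.0543). It ended too without serotonin replicate 1 or 2 and without DMSO replicate 2, 3 or 5. Its receptor gene npr-22 gave -0.25 (adjusted p = 0.469). Of 30 further glycerolipid genes, 10 were higher and 4 lower, beside the same shares of all genes, among them the acyltransferase gene dgtr-1 at 0.73 ± 0.12 (SE, edgeR, adjusted p = 1.53e-04) and acl-12 at -0.70 ± 0.07 (SE, edgeR, adjusted p = 4.37e-06).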
